A study of Mus musculus with 4 samples.

Results

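Pax7 occupancy was examined in mouse muscle progenitors at 8 genes that build or edit heparan sulfate, namely Ext1, Ext2, Ndst1, Glce, Hs2st1, Hs6st1, Sulf1 and Sulf2. All peaks were taken whose summit lay within 100 kb of 1 of these genes, and 51 of the 20579 peaks in the genome met this rule. Hs2st1 was picked for the set by the fold enrichment of a peak in its intron, in the same list that is described here. That fold enrichment is therefore given as a description. The 8 genes were all chosen with earlier results of these data known. The counts and strengths of their peaks are set beside those of all genes or all peaks without a test.

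Pax7 is a transcription factor of muscle stem cells that binds DNA through a paired domain and a homeodomain. It was mapped by chromatin immunoprecipitation and sequencing (ChIP-seq) in iPax7 cells, which are mouse embryonic stem cells with a Pax7 transgene switched on by doxycycline (Dox). Embryoid bodies received 1 µg/ml Dox from day 3, PDGFRα+ FLK1- cells were sorted on day 5 and grown on with Dox and 10 ng/ml basic FGF, and chromatin was taken on day 9 after 6 days of Dox. The Pax7_ChIP group had 2 libraries and the Input group had 2 libraries of chromatin that was not precipitated, all from cells in Dox. No group lacked Dox, and the antibody recognised Pax7 itself, so the transgene product and any endogenous Pax7 cannot be told apart. Peaks were called once on the merged libraries, so no peak has a spread between replicates, and the list holds no read counts and no measure of expression against which the cell type could be checked. Fold enrichment below is the ratio of ChIP signal at the summit to the local background estimated by the peak caller, and q is its false discovery rate, given as −log10.

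Heparan sulfate is a long sugar chain carried by proteoglycans at the cell surface and in the matrix. The polymerase formed by Ext1 and Ext2 extends the chain, Ndst enzymes replace acetyl by sulfate groups on glucosamine, the epimerase Glce converts glucuronic to iduronic acid, and Hs2st1 and the Hs6st enzymes then add sulfate at the 2-O and 6-O positions. Sulf1 and Sulf2 work outside the cell and remove 6-O sulfates from finished chains. The resulting pattern of sulfate governs how fibroblast growth factors, Wnt proteins and other ligands meet their receptors, and the Sulf enzymes are known to act on such signals in muscle stem cells.

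The DNA under the peaks that the description turns on is printed below. Each run is 101 bases of the plus strand of mouse build NCBIM37 (mm9), centred on the summit. Capitals mark the letters GTCACG, a core sequence of the paired domain, or ATTAGTCA, in which a homeodomain half-site (ATTA) runs directly into a partial paired-box core. Both were searched on either strand, and a single stretch could hold both only where ATTAGTCA is followed by CG. The first pair of runs holds ATTAGTCA, the next 3 hold GTCACG, and the last 3 hold neither and are among the strongest peaks at Hs2st1, Sulf2 and Glce.
Hs2st1 intron, 27.3-fold, chr3:144202243-144202343: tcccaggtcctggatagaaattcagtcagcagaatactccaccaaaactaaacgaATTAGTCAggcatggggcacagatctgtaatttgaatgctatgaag
Ext1 intron, 4.19-fold, chr15:53054158-53054258: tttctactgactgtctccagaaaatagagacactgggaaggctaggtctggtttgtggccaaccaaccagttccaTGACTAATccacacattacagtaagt
Hs6st1 downstream, 9.94-fold, chr1:36173560-36173660: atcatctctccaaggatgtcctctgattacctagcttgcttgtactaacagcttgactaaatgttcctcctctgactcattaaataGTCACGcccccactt
Ext1 intron, 5.85-fold, chr15:52925573-52925673: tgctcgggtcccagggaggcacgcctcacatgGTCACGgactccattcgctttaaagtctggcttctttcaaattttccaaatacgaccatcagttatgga
Glce upstream, 5.28-fold, chr9:61985080-61985180: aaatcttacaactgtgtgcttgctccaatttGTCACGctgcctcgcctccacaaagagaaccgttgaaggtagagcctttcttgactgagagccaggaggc
Hs2st1 upstream, 12.8-fold, chr3:144248394-144248494: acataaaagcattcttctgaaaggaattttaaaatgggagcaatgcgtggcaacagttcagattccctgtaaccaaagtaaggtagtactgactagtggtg
Sulf2 downstream, 9.87-fold, chr2:165835921-165836021: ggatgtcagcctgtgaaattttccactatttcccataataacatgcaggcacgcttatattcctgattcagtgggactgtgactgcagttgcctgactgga
Glce upstream, 7.68-fold, chr9:61970682-61970782: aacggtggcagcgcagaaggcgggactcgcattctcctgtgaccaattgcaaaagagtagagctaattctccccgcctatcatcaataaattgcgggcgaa

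Every one of the 8 genes had at least 1 Pax7 peak within 100 kb, where 75.2% of 22350 protein-coding genes did. The number ran from 3 at Sulf1 to 12 at Hs2st1, with a median of 5.5, and the median protein-coding gene had 2 (quartiles 1 and 4). Since longer genes have longer windows, the counts were also taken per megabase. The median density of protein-coding genes was 9.16 peaks per Mb, with quartiles of 2.04 and 16.4. Of the 8 genes, 7 lay above that median and 6 above the upper quartile, in the order Hs2st1 (35.4 peaks per Mb), Glce (28.1), Ndst1 (22.8), Hs6st1 (21.0), Ext1 (20.7) and Sulf2 (17.7). Ext2 followed with 12.2 and Sulf1 with 8.78. All 8 genes were chosen with earlier results of these data known, so their densities describe the set and were not tested. Each of these densities rests on 12 peaks or fewer from 1 list, so neighbours in the order cannot be told apart by any replicate spread. The RefSeq start of Glce, described below, lengthens its window by 52.0 kb and adds no peak, so its density would be lower.

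**Figure D1:**
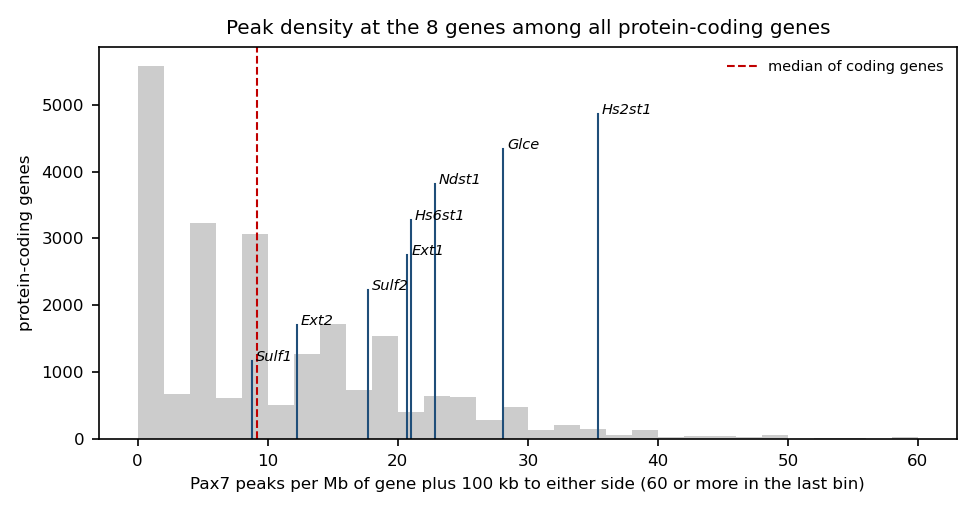
Histogram of Pax7 peaks per Mb over 22350 protein-coding genes, each with 100 kb to either side (grey, number of genes on the vertical axis), with a blue line at the value of each of the 8 genes and a dashed line at the median of 9.16. Line heights only separate the labels. Only Sulf1, at 8.78 peaks per Mb, lies left of the dashed line.

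The strength of the peaks at these genes was close to that of peaks elsewhere. Their median fold enrichment was 5.28 (quartiles 4.18 and 6.36), and that of all peaks was 5.22 (quartiles 4.32 and 6.74). At least 5-fold enrichment was seen at 27 of the 51 peaks (52.9%, 95% Wilson interval 39.5 to 65.9, which covers counting error only) against 54.9% of all peaks. At least 10-fold enrichment was seen at 2 of 51 (3.92%) against 6.99% of all peaks, and both were at Hs2st1. Leaving out the Hs2st1 window left the median at 5.28 and the highest value at 9.94. Among all protein-coding genes, 15.0% had a peak of at least 10-fold in the window, and 1 of the 8 genes did.

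**Figure D2:**
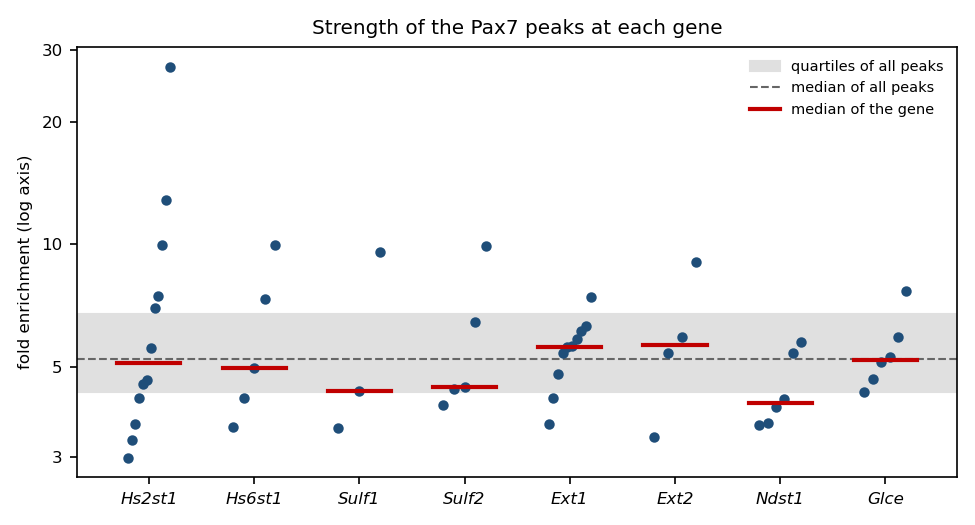
Fold enrichment of every peak within 100 kb of each gene (points, log axis), with the median of each gene (red bar) and the median and quartiles of all 20579 peaks (dashed line and grey band). The Hs2st1 point at 27.3 stands apart, and the medians of the 8 genes lie between 4.07 and 5.66.

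Most of the peaks, like most peaks in the genome, were distant from promoters. Of the 51 summits, 20 were inside the gene, 17 upstream and 14 downstream of it. Only 3 (5.88%, Wilson interval 2.02 to 15.9) were within 1 kb of any annotated transcription start site (TSS), where 16.3% of all peaks were. Within 5 kb the shares were close, at 27.5% and 29.4% of all peaks. Introns held 26 (51.0%, against 42.1% of all peaks), and 19 of the 51 were in introns of the gene itself. A window of 100 kb also takes in neighbouring genes. The nearest coding TSS was that of the heparan sulfate gene for 37 of the 51 peaks (72.5%, Wilson interval 59.1 to 82.9), and for all peaks at Ext1, Ext2, Glce and Hs6st1. Any annotated coding start of a gene counts as its own here. With TSSs of any transcript the share was 52.9%. Of the 8 strongest peaks, 1 per gene, 6 were nearest to the gene's own coding TSS.

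**Figure D3:**
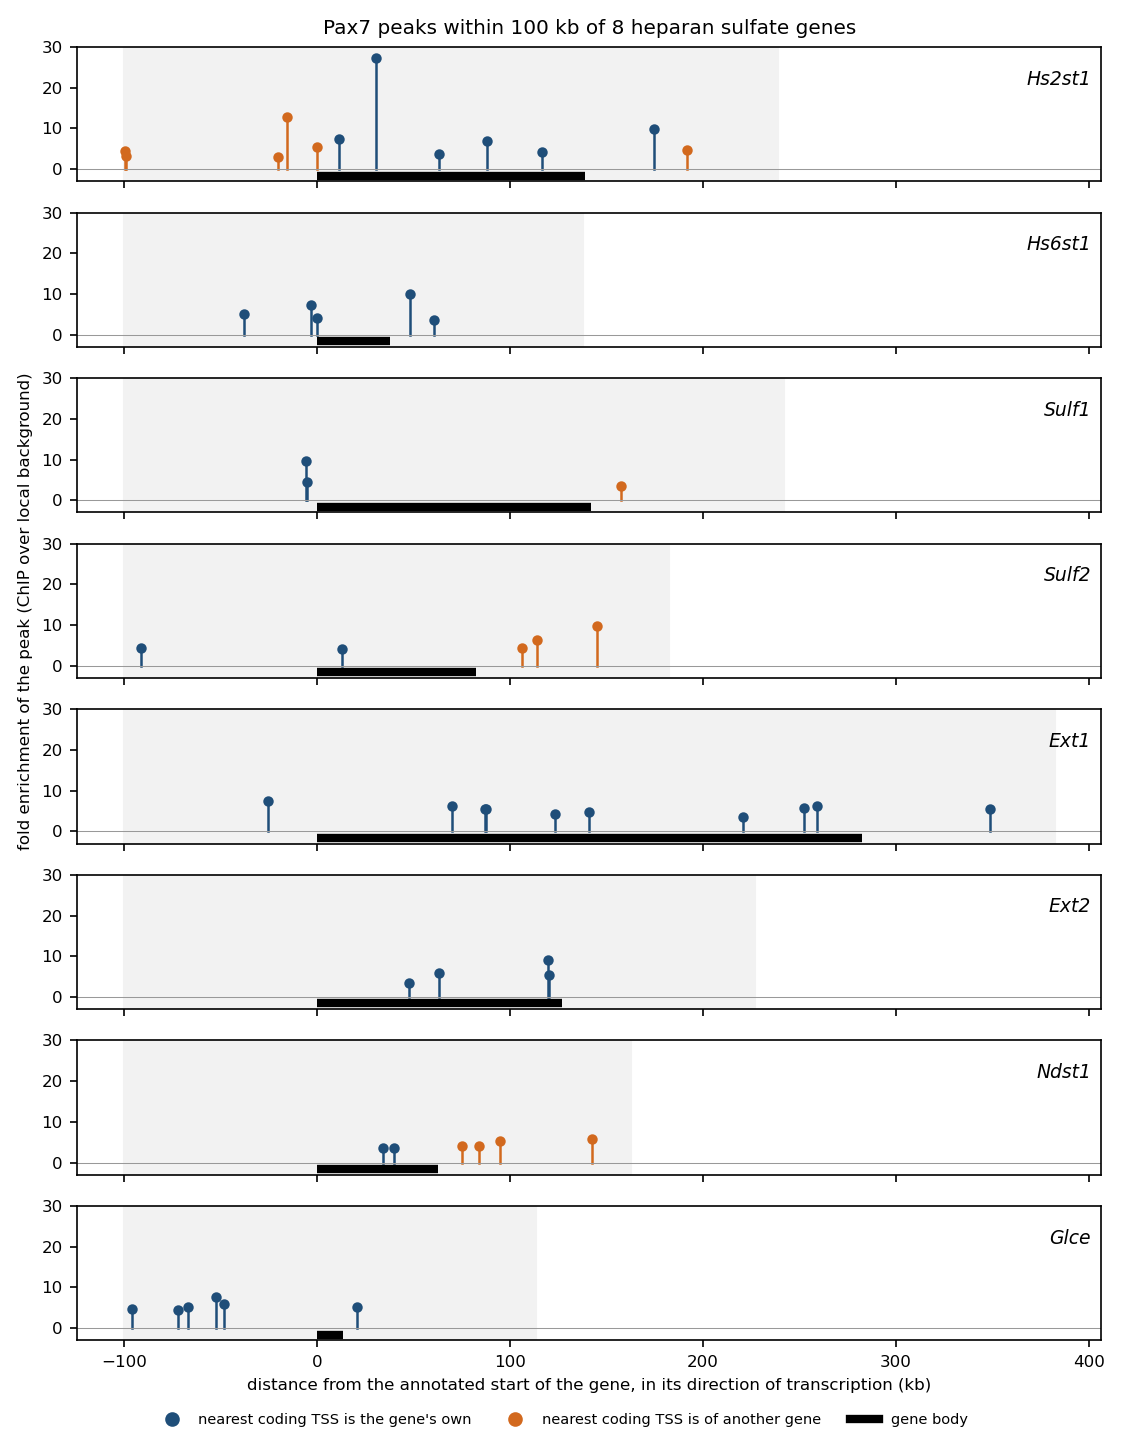
Fold enrichment (vertical axis) of the 51 peaks against the distance of the summit from the annotated start of each gene, in the direction of transcription (horizontal axis, kb). The black bar is the gene, grey shading marks the window, blue points are nearest to the gene's own coding TSS and orange points to that of a neighbour. Peaks lie inside the gene at Ext1, Ext2, Hs2st1, Ndst1 and Sulf2, and outside it at Glce, Hs6st1 and Sulf1.

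The chain polymerase genes carried their peaks mainly within the gene. Ext1 (chromosome 15, 52895593 to 53177714, minus strand) had 10 peaks, 8 of them in its introns and 6 of those in intron 1 of 10. The fold enrichment of all 10 ran from 3.60 to 7.40 with a median of 5.59. The strongest, 7.40-fold, lay outside the gene, 25.1 kb upstream of the start. The next in strength were 6.28-fold in intron 1, 70.0 kb from the start, and 6.12-fold in intron 7. The peak in intron 4 at 5.85-fold holds GTCACG 15.5 bp from its summit. A pair in intron 1, at 5.58-fold and 5.40-fold, had summits 952 bp apart.

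Ext2 (chromosome 2, 93535788 to 93662725, minus strand), the partner subunit of Ext1, had 4 peaks, all inside the gene. The strongest, at 9.02-fold (−log10 q 51.6), was 120 kb from the start, close to the end of the gene. It was also 1496 bp downstream of another annotated coding TSS of Ext2. It lies in intron 13 of 13 of the longest transcript and in an exon of a shorter one. A second peak of 5.40-fold stood 826 bp from it. The remaining peaks were 5.92-fold in intron 8 and 3.36-fold in intron 7. No peak lay within 1 kb of an annotated TSS of either Ext1 or Ext2, and none of the Ext2 summits had GTCACG within 50 bp.

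Ndst1, which starts sulfation of the chain by N-deacetylation and N-sulfation, had 6 peaks and the lowest strengths of the set. Its median was 4.07-fold and its strongest peak 5.73-fold. Both peaks inside the gene were weak, 3.63-fold in intron 1 and 3.59-fold in intron 2. The 3.63-fold summit was 1158 bp upstream of another annotated coding TSS of Ndst1, and the 3.59-fold summit 4413 bp downstream of it. The other 4 lay downstream and were nearest to the coding TSS of Synpo, the gene of the actin-associated protein synaptopodin. The 5.73-fold peak was in an exon of Synpo and the 5.41-fold peak in its intron, with GTCACG 8.5 bp from the summit. A 4.16-fold peak lay between the genes. The high density at Ndst1 thus came mostly from peaks closer to Synpo.

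Glce (chromosome 9, 61905055 to 61918413, minus strand), the C5-epimerase, had 6 peaks and none in its annotated body. Of these, 5 lay upstream, between 48.3 and 95.7 kb from the start, and 1 lay 21.0 kb downstream of the start. The strongest was 7.68-fold, 52.3 kb upstream, and at 735 bp it was the widest of the 51. The gene model used here is short at its 5′ end. The RefSeq promoter of Glce (from build GRCm38.p6) matched NCBIM37 letter for letter over all 300 bases, 52.0 kb upstream of the annotated start. The 7.68-fold summit is 316 bp upstream of that RefSeq TSS, and its peak covers 241 of the 300 promoter bases. By RefSeq it is a promoter peak, whereas by the annotation it is 331 bp from the TSS of a noncoding transcript, AC123610.1. The next peaks were 5.91-fold at 48.3 kb and 5.28-fold at 66.7 kb upstream of the annotated start, the latter with GTCACG 16.5 bp from its summit.

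Hs2st1 (chromosome 3, 144094067 to 144233145, minus strand), the only 2-O-sulfotransferase for heparan sulfate, had 12 peaks, more than 99.1% of protein-coding genes. Only 6.96% of these genes have a longer window, and by peaks per Mb Hs2st1 was above 97.7% of them. The peak for which it was picked spans positions 144202077 to 144202499 in intron 1 of 6. It lies 30.9 kb from the start and 17.6 kb from the nearest exon. Its fold enrichment of 27.3 ranked 2 among all 20579 peaks, and its −log10 q of 172 ranked 4. It was 3.67 times as enriched as the next peak inside the gene. ATTAGTCA stands 8.5 bp from the summit, and GTCACG is not within 50 bp. ATTAGTCA was singled out after this sequence was seen. It was found at 2.94% of all summits and at 64 of the 1439 peaks of at least 10-fold (4.45%). Among the 40 peaks of at least 20-fold it was at 3 (7.5%), this one included. For GTCACG or a homeodomain dimer (TAAT and ATTA 2 or 3 bases apart) these shares were 12.9%, 21.5% and 32.5%.

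The other peaks at Hs2st1 ranged from 2.98-fold to 12.8-fold. The 12.8-fold peak (−log10 q 81.5, rank 500 by fold) lay 15.3 kb upstream, in an intron of the divergent neighbour Sep15, which encodes a selenoprotein of the endoplasmic reticulum. A 9.94-fold peak lay 174 kb from the start, beyond the end of the gene. Within the gene were further peaks of 7.44-fold, 6.96-fold and 3.60-fold in intron 1 and 4.19-fold in intron 3. In all, 6 of the 12 were nearest to the coding TSS of Hs2st1, 3 to Sep15, 2 to Sh3glb1 and 1 to Lmo4.

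By the GENCODE annotation, Hs2st1 was also 1 of 2 genes of the set with a peak within 1 kb of its own coding TSS. Of protein-coding genes, 13.2% had one. By the RefSeq TSS described above, Glce had a promoter peak as well. The Hs2st1 peak was 5.54-fold, with its summit 176 bp upstream of the Hs2st1 start and 53 bp from a TSS of Sep15. It thus sits on a start region shared by both genes. The RefSeq promoter of Hs2st1 contains all 218 bases of the peak. It holds 1 GTCACG, read on its other strand, which begins 167 bases before the RefSeq TSS. The letters around it are printed on the strand of Hs2st1, with the core in capitals.
Hs2st1 promoter: ttgcttgagtccCGTGACaaggaacccaac
Among 32851 RefSeq mouse promoters of the same length, 8.22% held GTCACG on either strand.

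Hs6st1 (chromosome 1, 36125245 to 36163291, plus strand), a 6-O-sulfotransferase, was the other gene with a peak within 1 kb of its GENCODE start. That peak was 4.18-fold, 90 bp upstream of the TSS, in DNA of 80.2% G and C, and 184 bases of the RefSeq promoter lie under it. GTCACG does not occur in that promoter. A stronger peak of 7.32-fold stood 3.31 kb upstream. The strongest of the 5, 9.94-fold, lay 48.4 kb from the start and downstream of the gene, with GTCACG 38.5 bp away from the summit. Weaker peaks were found at 4.96-fold, 37.6 kb upstream, and at 3.55-fold, 60.9 kb from the start. No peak was inside Hs6st1.

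The endosulfatase genes had 3 peaks (Sulf1) and 5 peaks (Sulf2), of which 2 at each gene were nearest to its own coding TSS. Sulf1 (chromosome 1, 12708626 to 12850452, plus strand) had 3 peaks and none inside its 142 kb. The strongest, 9.59-fold, was 5.77 kb upstream of the start, with a second of 4.36-fold 767 bp away. The third, 3.52-fold, lay 158 kb from the start in an intron of Slco5a1. The strongest Sulf1 peak holds an inverted repeat, given here in capitals, with perfect arms of 12 bases separated by 7 bases and centred 27 bp from the summit. Each arm contains the letters AATT.
Sulf1 upstream, 9.59-fold, chr1:12702806-12702906: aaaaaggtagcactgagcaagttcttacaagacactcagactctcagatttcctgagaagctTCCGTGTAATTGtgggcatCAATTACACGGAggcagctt
The repeat was looked for after this sequence was seen. Perfect arms of at least 12 bases no more than 20 bases apart occurred within 50 bp of 13 of the 20579 summits (0.0632%), and the next longest among the 51 had arms of 8 bases.

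Sulf2 (chromosome 2, 165898589 to 165981163, minus strand) had 5 peaks. The 3 strongest, 9.87-fold, 6.44-fold and 4.46-fold, all lay downstream of the gene in introns of Ncoa3, a nuclear receptor coactivator, and were nearest to its coding TSS. The only peak inside Sulf2 was 4.01-fold, in intron 1, 12.9 kb from the start. The last, 4.41-fold, lay 91.0 kb upstream. A 12.7-fold peak was just outside the rule, 111 kb from Sulf2. At the other genes the first peak past the 100 kb limit had a fold enrichment between 3.52 and 7.26, and the peak nearest to the limit on its inner side had between 3.52 and 5.73, Ext2 aside, which had none outside the gene.

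By the strongest peak inside the gene, Hs2st1 ranked 1 among all protein-coding genes. The 3 genes next below it were Elmo2 (25.1-fold), an adaptor in Rac signalling and cell movement, Psmb2 (23.7-fold), a proteasome subunit, and Slc24a4 (23.2-fold), a potassium-dependent sodium-calcium exchanger. In total, 5 of the 8 heparan sulfate genes had a peak in the gene body, and 22.3% of all protein-coding genes did. Among protein-coding genes split into 4 groups of like size by gene length, this share was 3.24% in the shortest group, then 10.8% and 21.7%, and 53.5% in the longest, which began at 42.5 kb. The genes without a body peak measured 13.4 kb (Glce), 38.0 kb (Hs6st1) and 142 kb (Sulf1). With the RefSeq start of Glce, its 5.91-fold peak falls inside the gene and the count becomes 6 of the 8.

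The wider pathway was covered by a list of 48 genes that includes the 8. A Pax7 peak lay within 100 kb of 41 of the 48 genes (85.4%), against 75.2% of protein-coding genes. Of the 40 genes other than the 8, 33 had one (82.5%). Their median density was 9.30 peaks per Mb, close to the 9.16 of protein-coding genes, with 12 of the 40 above the upper quartile. A body peak was present at 20 of these 40 and a peak of at least 10-fold in the window of 11, where the background was 22.3% and 15.0% of protein-coding genes. Several of these genes are very long, such as Gpc5 at 1432 kb. Of the 33 genes with a peak, the strongest was nearest to the gene's own coding TSS at 15 and to that of a neighbour at 18.

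**Figure D4:**
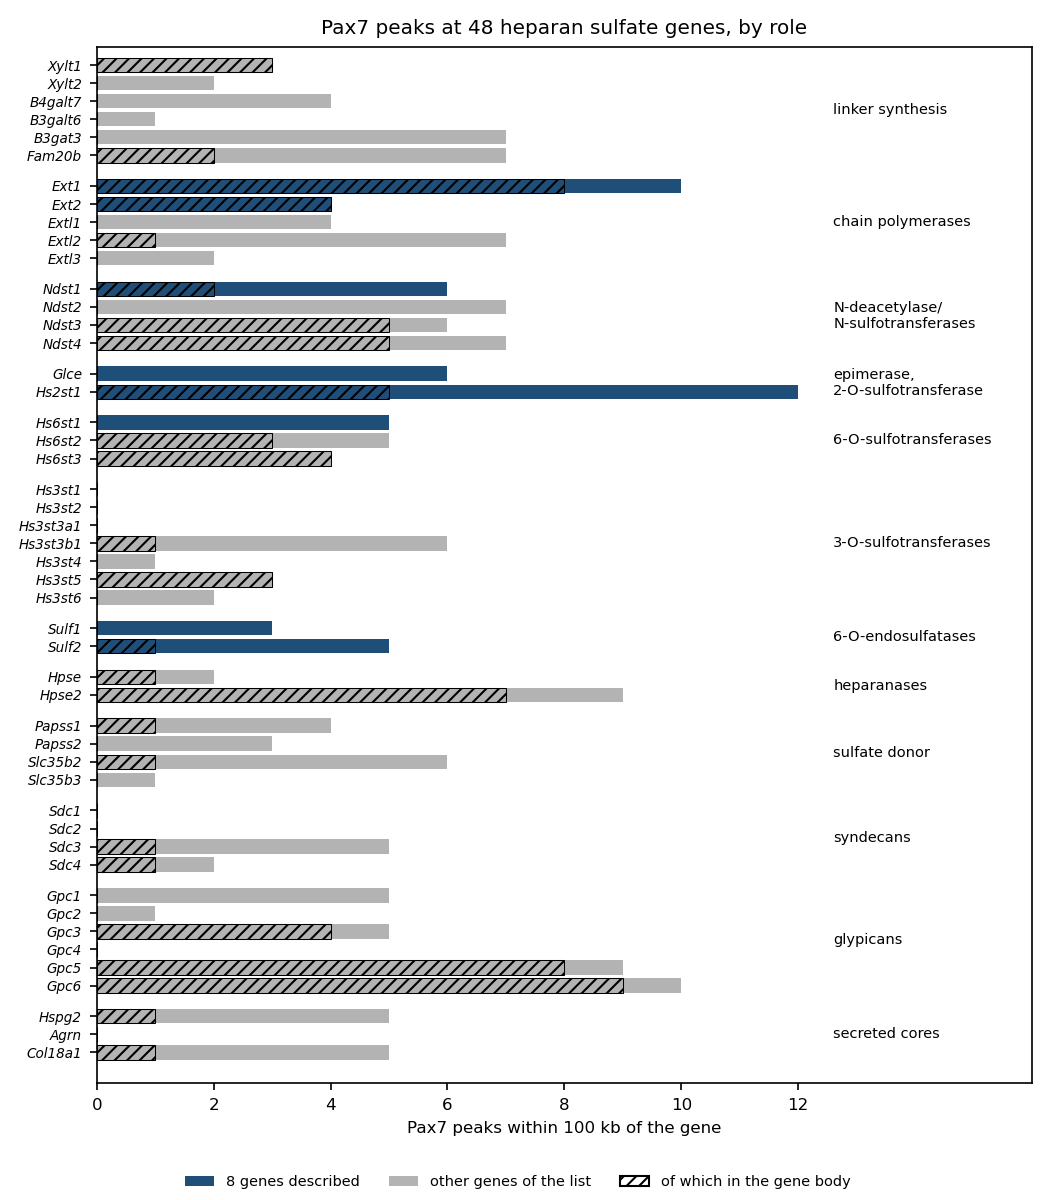
Number of Pax7 peaks within 100 kb of each of 48 heparan sulfate genes (horizontal axis), grouped by role, with the 8 genes described in blue, the others in grey and the peaks inside the gene hatched. Hs2st1 has the longest bar, with 12 peaks, and 7 genes have none, 3 of them 3-O-sulfotransferases.

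By role, all 6 genes for the linker that joins the chain to its core protein had peaks. Xylt1, which adds the first sugar, had the strongest peak (19.3-fold, in its own body), and B3gat3 and Fam20b had the most, with 7 each. At Xylt2, B4galt7, B3galt6, B3gat3 and Fam20b the strongest peak was nearest to the coding TSS of a neighbour. Of the 6, 2 had a body peak. Among the polymerase family the highest value was 9.20-fold at Extl2, at a peak nearest to Vcam1, against 9.02-fold at Ext2. Ndst2 and Ndst4 each had 7 peaks and Ndst2 a 10.1-fold peak, nearest to the TSS of 2310021P13Rik, more than the 5.73-fold of Ndst1. Hs6st3 had a 10.6-fold peak in its body, and Hs6st2 had 5 peaks, as many as Hs6st1.

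The 3-O-sulfotransferases, which add the rarest of the sulfates, had a median of 1 peak per gene, as did the syndecans. Hs3st1, Hs3st2 and Hs3st3a1 had none, Hs3st3b1 had 6 and Hs3st5 the strongest at 6.58-fold, inside the gene but nearer to the TSS of Hdac2. Heparanase-like Hpse2 had 9 peaks, up to 9.80-fold. Of the sulfate donor genes, Papss2 had the strongest peak (12.2-fold, nearest to Atad1) and the transporter Slc35b2 the most (6).

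Core proteins were mixed. Sdc1, Sdc2, Gpc4 and Agrn had no peak within 100 kb, while Sdc3, a syndecan of muscle stem cells, had 5, up to 7.24-fold at a peak nearest to Laptm5. Gpc6 had 10 peaks and Gpc5 the strongest glypican peak at 11.5-fold. The secreted cores Hspg2 (perlecan) and Col18a1 had 5 peaks each, the strongest being 11.2-fold at Hspg2, nearest to Gm13011.

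The paired-box core GTCACG was found within 50 bp of 5 of the 51 summits (9.80%, Wilson interval 4.26 to 21.0), 1 each at Hs2st1, Hs6st1, Ext1, Ndst1 and Glce. Homeodomain dimers, searched as TAAT and ATTA 2 or 3 bases apart, were found at 0 of 51, which allows a share of up to 5.88% by a limit of 3 counts in 51 and up to 7.0% by the Wilson interval drawn in the plot of motif shares. Of all peaks, 12.9% held the core or a dimer, and 1.77% and 1.90% of windows 500 bp to either side of them did. In the flanks of the 51 summits the counts were 2 and 3. The share at the 8 genes was thus within counting error of that of all peaks, and 5 against 2 and 3 is too few to set the summits apart from their own flanks.

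The shares of other motifs were also within counting error of those of all peaks. The E-box CAGCTG, bound by myogenic bHLH factors, was at 5 of 51 summits (9.80%, all peaks 15.7%). The Tead motif GGAATG was at 4 (7.84%, all peaks 11.0%) and the Runx motif TGTGGT at 6 (11.8%, all peaks 9.73%). A control sequence, GCACTG, was at 4 (7.84%, all peaks 6.86%). ATTAGTCA was at 2, those of Hs2st1 and Ext1 printed above (3.92%, all peaks 2.94%, flanks 0.292% and 0.350%). Any of the 20 8-letter sequences most concentrated at the summits of all other peaks was present at 6 of 51 (11.8%) against 18.6% of all peaks. These sequences were picked on the other peaks, which can raise the 18.6%, so the shares are not like for like.

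**Figure D5:**
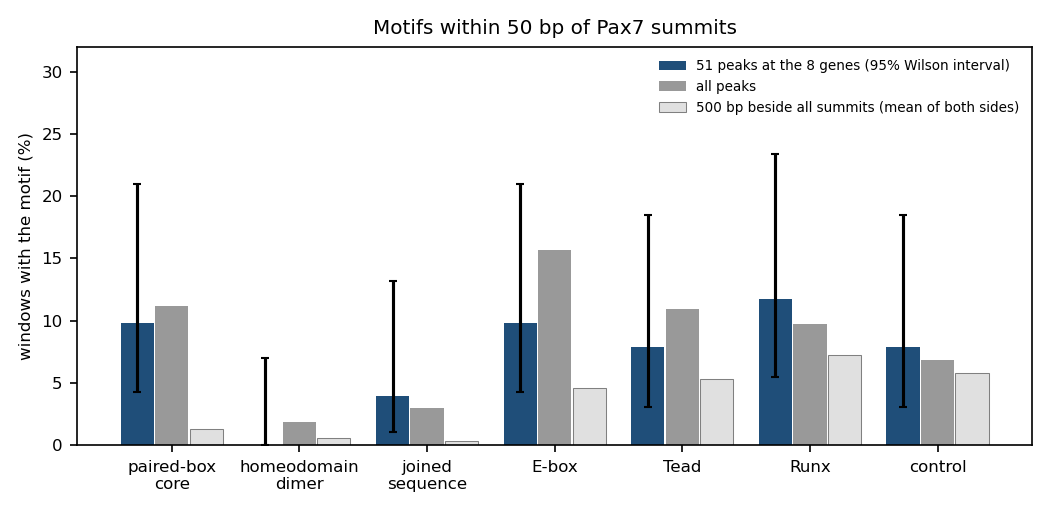
Share of 101-base summit windows that hold each motif on either strand (vertical axis, percent) for the 51 peaks (blue, with 95% Wilson intervals for counting error), all 20579 peaks (mid grey) and windows 500 bp beside all summits (light grey, mean of both sides). Each interval of the 51 peaks includes the share of all peaks, for example 9.80% against 15.7% for the E-box.

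Some summits at the 8 genes stood close to another. A neighbouring summit within 1 kb was present at 8 of the 51 (15.7%, Wilson interval 8.17 to 28.0), in 1 pair each at Ext1, Ext2, Hs2st1 and Sulf1, and at 8.53% of all peaks. Both summits of a pair are counted, so this interval, which treats them as independent, is too narrow. Width and base composition did not stand apart, with a median width of 247 bp (all peaks 252 bp) and a median of 45.5% G and C around the summit (all peaks 45.5%).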

How the data were processed

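Pax7 ChIP-seq was done on 2 Pax7_ChIP and 2 Input libraries of iPax7 cells. The authors aligned reads to NCBIM37 (mm9) with bowtie2, kept unique reads without duplicates, merged replicates and called peaks with MACS2 at q 0.01. The deposited list gives 20579 peaks with a score, a fold enrichment at the summit (ratio of ChIP to local background), and −log10 p and −log10 q values. It holds no read counts, so depth per value is unknown and replicates cannot be compared.

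From the deposited values, summits were assigned to genes of GENCODE vM1 within 100 kb, and motifs were searched in 101-base windows of NCBIM37 with pysam 0.24.0 and pandas 2.3.3. Shares have 95% Wilson intervals (scipy 1.17.1), which cover counting error only. The code that assigns summits to windows and finds motifs was checked on simulated positions and sequences with known answers. RefSeq promoters were at hand for 5 of the 8 genes, and these matched NCBIM37. None was at hand for Ext1, Ndst1 and Sulf1, whose annotated starts were therefore not checked. The genes, the list of 48 and the motifs were chosen with earlier results of these data known. Peaks were named by rule: the 3 strongest per gene (all where there were 5 or fewer), any within 1 kb of its TSS, and gene-body peaks with a paired-box core. Other list genes were named for the most peaks or the strongest peak in a role, or for having 0; further peaks were named after their values were seen. Alternatives were other distances, thresholds, TSS sets and motif widths.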

Additional observations from a re-analysis of the deposited data

How the results depend on the processing

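No paired analysis was possible because peaks were called on merged libraries and no value belongs to a single replicate; for the same reason no replicate could be left out. Of 21 alternatives, 16 kept the value (counts within 1.5 times the main count, shares and the median within their intervals) and 5 moved. These limits are wide, and 76 peaks with 200 kb in place of 100 kb still counted as kept. The 51 peaks became 20 in the gene body alone and 27 with at least 5-fold enrichment. The share of summits near a TSS rose from 5.88% to 27.5% with 5 kb in place of 1 kb (all peaks 29.4%), and the share nearest to the gene's own TSS rose from 52.9% with any transcript to 72.5% with coding TSSs. List genes with a peak numbered 25 in place of 41 with the gene body alone. Each of these follows from how the alternative selects peaks or start sites. The median fold enrichment stayed between 5.28 and 5.41. A search for ATTAGTCA and for 20 8-letter sequences was added after seeing the data. The number of peaks limits each share: 5 of 51 allows 4.26 to 21.0%.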
